A study of Homo sapiens with 16 samples.

Results

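The 57 genes described here encode core proteins of the spliceosome, the particle that removes introns from pre-mRNA. They were taken by name as members of its subcomplexes. All 57 were found, each under a single gene identifier, among the 61906 genes of the deposited tables, and they hold 498 of the 251295 listed transcripts. By role they fall into 7 U1 proteins and U1-associated factors, 13 proteins of U2 and of the U2 auxiliary factor U2AF, 11 proteins of the U4/U6.U5 tri-snRNP, 7 Sm proteins, 7 LSm proteins, and 12 factors of activation and catalysis.

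A small nuclear ribonucleoprotein (snRNP) is a small nuclear RNA (snRNA) with its proteins. U1 pairs with the start of an intron, while U2, guided by U2AF, pairs with the branch point near its end. The U4/U6.U5 tri-snRNP then joins, helicases and the PRPF19 complex (NTC) remodel the particle, and step factors help the catalytic steps. Sm proteins form a ring on most spliceosomal snRNAs, and LSm proteins form a ring on U6. HNRNPH1, the depleted protein, binds G-rich RNA and regulates splicing without being a core member of the spliceosome.

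The study depleted HNRNPH1 in established human cell lines. HEK-293T is an embryonic kidney line made to express large T antigen of SV40, and HT-1080 is a fibrosarcoma line. Cells received either siHNRNPH1, an siRNA that targets HNRNPH1 mRNA, or siNegative, the control siRNA, at 20 nM, and were taken for RNA at 48 h, per the labels. Each of the 4 groups has 3 short-read libraries that the labels' protocol describes as biological replicates, plus 1 long-read (IsoSeq) pool. Both arms share the transfection, and no untransfected sample was analysed here.

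Library totals of expected counts were 107.7 M to 121.0 M in HEK-293T libraries, and HT-1080 libraries held 27.3 M to 32.7 M, where M stands for mega. Levels are given as CPM, a gene's expected count over its library total in M, and are not divided by gene length, so they are compared between samples and not between genes. HNRNPH1 itself measured 1107, 1105 and 1121 CPM in the siNegative and 234, 376 and 394 CPM in the siHNRNPH1 libraries of HEK-293T. It measured 635, 606 and 617 against 231.5, 231 and 228.5 CPM in HT-1080, so that every siHNRNPH1 library was below every control. Its log2 fold change was -1.76 ± 0.20 (SE, edgeR BH-adjusted p = 0.00939) in HEK-293T and -1.49 ± 0.04 (edgeR BH-adjusted p = 6.76e-09) in HT-1080. Leaving out 1 HEK-293T library in turn gave -1.89 to -1.58, and the HEK-293T call was lost in 4 of these 6 fits. A missing call in HEK-293T therefore does not show that a gene was unchanged. CAV1, CD44 and PLAU, markers of HT-1080, averaged 265 to 3037 CPM in its controls and at most 6.78 CPM in those of HEK-293T, where LIN28B averaged 178 CPM. PAX2, listed as a HEK-293T marker, averaged only 1.34 CPM there.

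Among the HEK-293T siHNRNPH1 libraries, replicate 1 stood apart. Over log2 CPM of the tested genes its correlation with replicates 2 and 3 was 0.965 and 0.962, against 0.999 between those and 0.996 to 0.998 within the HT-1080 groups. LIN28B was at 65.7 CPM in replicate 1 and at 197 and 203 CPM in replicates 2 and 3. HEK-293T results are therefore given with all 6 libraries and without replicate 1. The part of that library's difference in any result was not tested, and in bulk libraries fewer cells of a type and less RNA per cell cannot be told apart. In HT-1080, siNegative replicate 2 stood apart to a smaller degree. Its correlation with siNegative replicates 1 and 3 was 0.9959 and 0.996, against 0.9981 between those.

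Most core spliceosome genes fell in HT-1080. Of the 57 genes, 40 were lower and 5 higher after siHNRNPH1 (edgeR's quasi-likelihood test, BH-adjusted over all genes tested, threshold 0.05), which is 78.9% of them. Of all genes tested in HT-1080, 65.3% passed the same test, 32.6% of them lower and 32.7% higher as shares of all genes. The share of members called lower, 70.2%, was thus above that of all genes, and the share called higher, 8.77%, was below it. The median log2 fold change of the members was -0.31, beside 0.01 over all genes. In 38 members every siHNRNPH1 library was below every siNegative library, a pattern held by 30.6% of all genes, and in 8 every one was above, a pattern held by 39.9%. The groups were thus apart in 46 members, beside 70.6% of all genes.

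In HEK-293T only 3 of the 57 members passed with all 6 libraries, or 5.26%, against 10.0% of all genes tested (5.12% higher and 4.88% lower). SLU7 and USP39 were lower and CRNKL1 was higher. With the replicate number as a block, an alternative described further below, edgeR called 0 members. At an unadjusted p under 0.05 the edgeR count was 7, and DESeq2 called 5. Without replicate 1 the count was 45 of 57, with 36 lower and 9 higher, where 61.8% of all genes passed (31.3% lower and 30.5% higher). The median of the members was 0.03 with all libraries and -0.13 without that replicate, beside 0.02 and 0.00 over all genes. The groups were apart upward in 11 members and downward in 11, or 19.3% each, beside 22.7% and 21.0% of all genes (43.7% in all). Leaving out any siNegative library left 0 members called by edgeR (3 to 4 at an unadjusted p under 0.05), and leaving out siHNRNPH1 replicate 2 or 3 left 1, SLU7. The shares of all genes called in these fits, with the block and by DESeq2 are not given here.

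**Figure D1:**
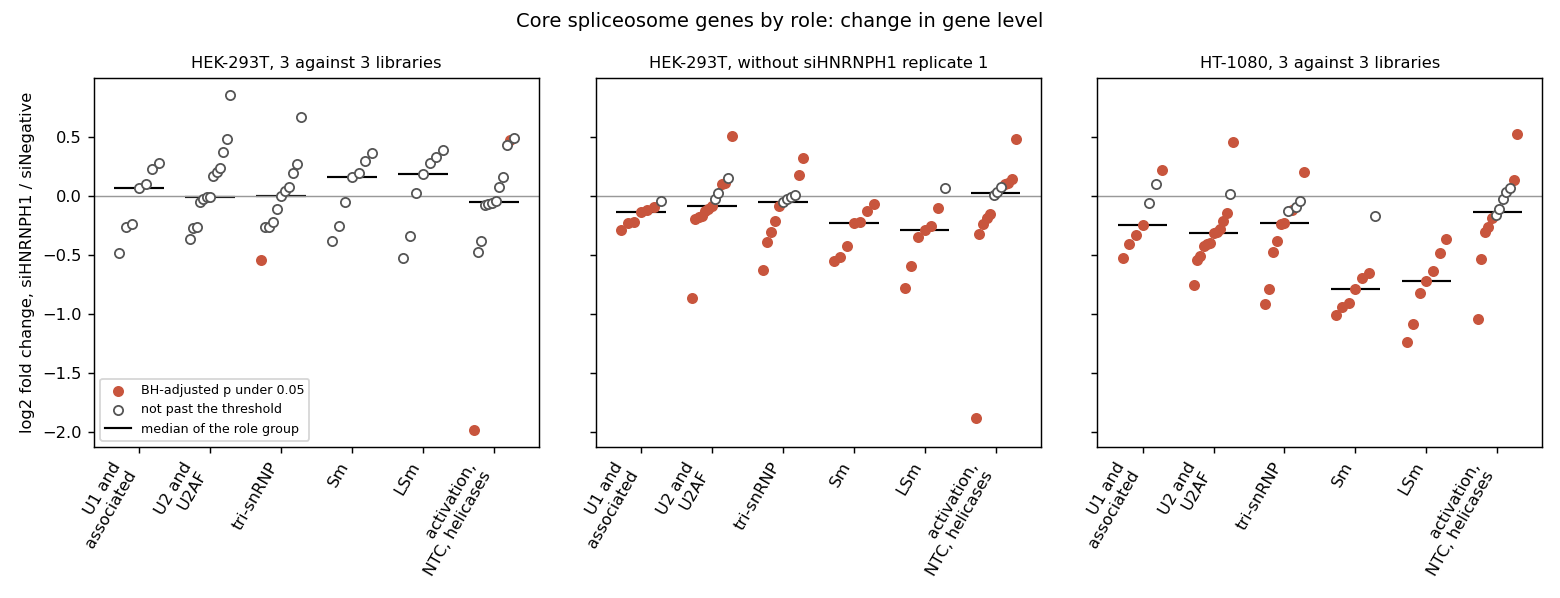
Log2 fold change (siHNRNPH1 over siNegative, vertical axis) of the 57 genes by role (horizontal axis), in HEK-293T with all libraries, in HEK-293T without siHNRNPH1 replicate 1, and in HT-1080. Filled points passed edgeR's test after BH adjustment, open points did not, and bars are medians of a role; the Sm and LSm medians lie at -0.79 and -0.72 in HT-1080 and above 0 in HEK-293T with all libraries.

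SLU7 carried the largest change of the members in HEK-293T and was lower in both lines. It encodes a step factor that helps choose the 3′ splice site. In HEK-293T its level was 75.5, 79.5 and 76.7 CPM in the controls and 16.1, 21.3 and 22.5 CPM after siHNRNPH1. In HT-1080 it was 66.1, 70.1 and 67.8 CPM against 34.9, 34.7 and 34.2 CPM. The groups did not overlap in either line. The log2 fold change was -1.98 ± 0.15 (SE, edgeR BH-adjusted p = 0.00502) in HEK-293T, -1.88 without replicate 1, and -1.04 ± 0.05 (edgeR BH-adjusted p = 9.63e-08) in HT-1080. A larger drop was seen in HEK-293T, since the cell line by siRNA interaction, coded as HT-1080 minus HEK-293T, was 0.87 ± 0.13 (edgeR BH-adjusted p = 0.00113). Without siNegative replicate 1, 2 or 3 of HEK-293T the adjusted p of SLU7 was 0.0559, 0.0638 and 0.0617, with a log2 fold change between -2.01 and -1.96.

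USP39, a ubiquitin protease-like protein needed to bring in the tri-snRNP, was lower in both lines. Its level was 82.7, 79.3 and 79.1 CPM in HEK-293T controls and 59.2, 53.2 and 55.3 CPM after siHNRNPH1, and 45.7, 46.8 and 44.6 against 24.6, 26.7 and 24.6 CPM in HT-1080. The groups were separate in both. The log2 fold changes were -0.55 ± 0.12 (SE, edgeR BH-adjusted p = 0.0447) and -0.92 ± 0.06 (edgeR BH-adjusted p = 5.15e-07), and the interaction was -0.45 ± 0.14 (edgeR BH-adjusted p = 0.0441).

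CRNKL1, a scaffold protein of the NTC, was the member called higher in both lines with all libraries. In HEK-293T it went from 43.8, 45.8 and 42.7 CPM to 59.2, 63.1 and 65.1 CPM, and in HT-1080 from 43.6, 45.2 and 43.4 CPM to 66.7, 65.5 and 67.5 CPM. The groups did not overlap. Its log2 fold changes were 0.48 ± 0.11 (SE, edgeR BH-adjusted p = 0.0453) and 0.53 ± 0.05 (edgeR BH-adjusted p = 6.03e-06), and the interaction of -0.02 ± 0.11 did not pass (edgeR BH-adjusted p = 0.963). In HEK-293T the calls of USP39 and CRNKL1 were lost without any 1 library other than siHNRNPH1 replicate 1, with adjusted p-values from 0.115 to 0.248. These 3 genes, called in the same direction in both lines, are set beside 6.89% of all genes called in both lines in any direction, 2.62% of all genes called higher in both and 2.80% called lower in both.

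**Figure D2:**
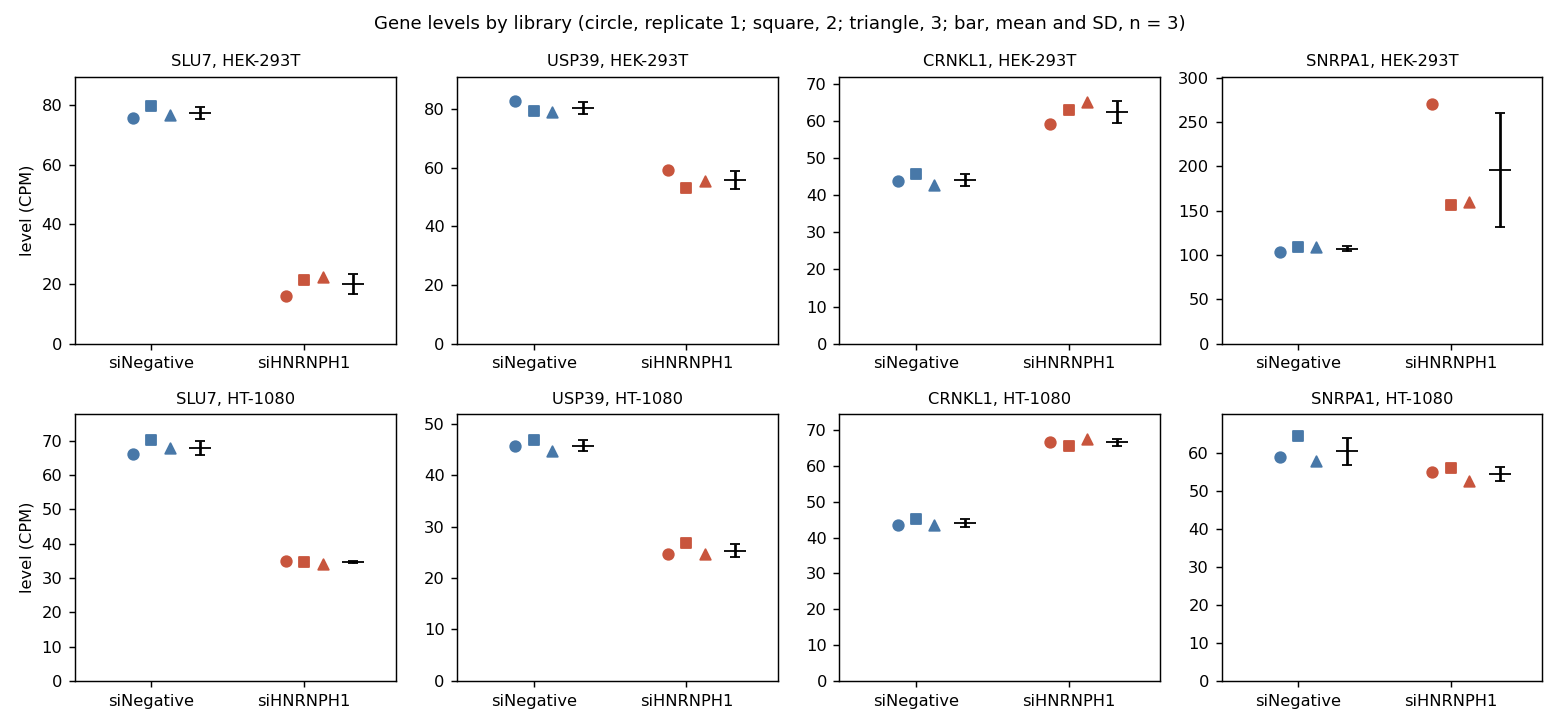
Level in CPM (vertical axis) of SLU7, USP39, CRNKL1 and SNRPA1 in each library of HEK-293T (top) and HT-1080 (bottom), with the mean and SD of 3 libraries beside them. SLU7 and USP39 are lower and CRNKL1 is higher in every siHNRNPH1 library, whereas SNRPA1 lies above the controls in HEK-293T, furthest in replicate 1 at 270.2 CPM, and below them in HT-1080.

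The Sm and LSm proteins showed the lowest medians of the roles in HT-1080. All 7 LSm genes and 6 of the 7 Sm genes were called lower, where 65.3% of all genes were called and 32.6% were lower. Their medians were -0.72 and -0.79, while the other 43 members had a median of -0.24. SNRPD2 was the exception, with a log2 fold change of -0.17 ± 0.09 (SE, edgeR BH-adjusted p = 0.148). It measured 156, 206 and 163 CPM in the controls and 163, 167 and 160 CPM after siHNRNPH1, so the groups overlapped. Leaving out 1 HT-1080 library in turn gave -0.25 to -0.03, and SNRPD2 passed only without siNegative replicate 1 (-0.25, adjusted p = 0.0363). Within the Sm ring, SNRPG fell from 60.4, 74.2 and 58.7 CPM to 31.95, 35.8 and 32.8 CPM, and SNRPF fell from 58.3, 67.7 and 55.8 CPM to 30.9, 34.4 and 34.03 CPM. The groups of both genes were apart, with log2 fold changes of -1.01 ± 0.09 and -0.94 ± 0.08 (SE, edgeR BH-adjusted p = 9.52e-06 and 5.84e-06). Among the LSm genes, LSM6 fell from 15.1, 16.2 and 13.1 CPM to 6.17, 6.03 and 7.52 CPM. LSM5 fell from 53.8, 61.3 and 52.5 CPM to 26.5, 27.5 and 29.0 CPM. Again no siHNRNPH1 library reached the controls, and the log2 fold changes were -1.24 ± 0.11 and -1.08 ± 0.07 (edgeR BH-adjusted p = 8.38e-06 and 9.82e-07). LSM8, the subunit that sets the nuclear LSm ring on U6 apart from the cytoplasmic ring with LSM1, fell least of the LSm genes, by 0.36 on the log2 scale (edgeR BH-adjusted p = 8.72e-05).

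The 3 HT-1080 siHNRNPH1 libraries behaved alike for these rings. Taken library by library, the median departure of the Sm genes from the control mean, on the log2(CPM + 1) scale, was -0.73, -0.68 and -0.74, and that of the LSm genes was -0.71, -0.55 and -0.65. Control replicate 2 of HT-1080 lay above the control mean for both, by 0.18 and 0.14. Over all tested genes the same medians were 0.06 in each siHNRNPH1 library.

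In HEK-293T the Sm and LSm genes went in opposite directions in different siHNRNPH1 libraries. None of the 14 passed the test with all libraries, where only 10.0% of all genes passed, although 2 had an unadjusted p under 0.05 in edgeR. In replicate 1, 6 of 7 Sm genes and 4 of 7 LSm genes were above all controls. In replicate 2, 6 of 7 in each ring were below all controls, and in replicate 3 it was 6 Sm and 5 LSm genes. The share of all genes above or below the controls in a single library was not computed, so these counts are a description. The median departure was 0.57 for Sm and 0.84 for LSm genes in replicate 1, against -0.21 and -0.23 in replicate 2 and -0.20 and -0.30 in replicate 3. Over all tested genes it was -0.02, 0.03 and 0.02 in replicates 1, 2 and 3. SNRPD2 shows the split, at 167, 155 and 169 CPM in the controls and 341, 149 and 142 CPM after siHNRNPH1. LSM3 shows it in part, at 64.8, 65.5 and 65.5 CPM against 132, 61.4 and 65.3 CPM, with replicate 3 within the range of the controls. Without replicate 1, all 7 Sm genes and 6 LSm genes were called lower, with medians of -0.23 and -0.29, where 61.8% of all genes were called and 31.3% were lower. SNRPD3 and LSM6 were the Sm and LSm genes with the lowest estimate with all libraries. SNRPD3 measured 176, 174 and 175 CPM against 155, 128 and 127 CPM (log2 fold change -0.38 ± 0.14, edgeR BH-adjusted p = 0.163). LSM6 measured 22.9, 23.5 and 22.8 CPM against 20.8, 14.04 and 13.9 CPM (-0.52 ± 0.21, edgeR BH-adjusted p = 0.184). In both genes every siHNRNPH1 library was below the controls, and neither passed with all 6 libraries.

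**Figure D3:**
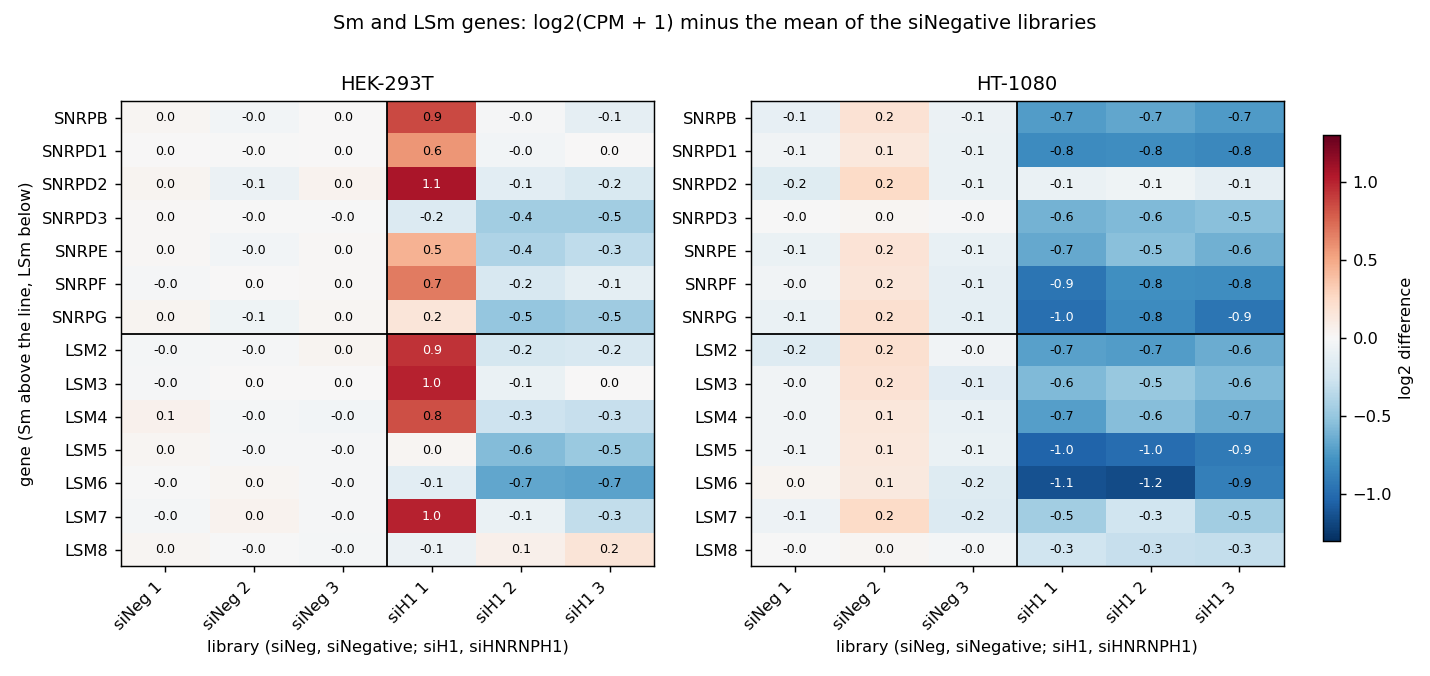
Heat map of the 7 Sm genes (above the line) and 7 LSm genes (below it) in each library of each line; colour and number give log2(CPM + 1) minus the mean of the line's 3 siNegative libraries. In HEK-293T the siHNRNPH1 replicate 1 column is mostly positive and the replicate 2 and 3 columns mostly negative, while all 3 HT-1080 siHNRNPH1 columns are negative.

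Of the U1 genes, 4 of 7 were called lower and 1 higher in HT-1080, with a median of -0.25. Here and for the roles that follow, 65.3% of all genes were called in HT-1080, 32.6% lower and 32.7% higher. SNRPC and SNRPA, proteins specific to the U1 particle, fell. SNRPC went from 72.9, 95.5 and 75.9 CPM to 56.6, 61.4 and 59.8 CPM (log2 fold change -0.53 ± 0.10, edgeR BH-adjusted p = 0.000917), and SNRPA from 73.7, 83.4 and 79.7 CPM to 61.4, 63.6 and 62.0 CPM (-0.41 ± 0.06, edgeR BH-adjusted p = 0.000136). Their groups were separate. LUC7L, a U1-associated protein that helps select 5′ splice sites, rose from 38.3, 39.0 and 38.4 CPM to 44.8, 47.1 and 49.3 CPM (0.22 ± 0.05, edgeR BH-adjusted p = 0.00417). Its relatives LUC7L2 and LUC7L3 had log2 fold changes of 0.10 and -0.06 and did not pass. None of the 7 passed in HEK-293T, where only 10.0% of all genes passed, and none had an unadjusted p under 0.05 in edgeR. SNRPC measured 142, 140 and 142 CPM there against 250.4, 134 and 133 CPM, a positive estimate of 0.28 ± 0.30 (edgeR BH-adjusted p = 0.602) that was -0.14 without replicate 1. PRPF39, a U1-associated scaffold, measured 73.2, 72.1 and 73.5 CPM against 36.3, 59.6 and 64.3 CPM, all below the controls (-0.48 ± 0.21, edgeR BH-adjusted p = 0.209).

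The U2 and U2AF genes were called lower in 11 of 13 cases in HT-1080 and higher in 1, with a median of -0.31. SF3A2, a subunit of the SF3A complex that joins U2, fell from 169, 173 and 176 CPM to 109, 108 and 104 CPM. SF3B4, an SF3B subunit at the branch site, fell from 127, 132 and 139 CPM to 96.3, 101 and 90.6 CPM. The log2 fold changes, with groups apart, were -0.76 ± 0.04 and -0.54 ± 0.05 (edgeR BH-adjusted p = 3.05e-07 and 1.60e-05). SF3B2, another SF3B subunit, rose instead, from 250.1, 256 and 252 CPM to 376, 360.4 and 357 CPM (0.46 ± 0.04, edgeR BH-adjusted p = 9.22e-06). SF3B1, the branch-site-binding core of SF3B, was called lower by 0.15 (edgeR BH-adjusted p = 0.0248) with groups that overlapped, at 349, 315 and 347 CPM against 319, 311 and 327 CPM, and it did not pass without any 1 HT-1080 library other than siNegative replicate 2 (adjusted p-values from 0.0504 to 0.112). SF3B6, the branch-site protein p14, did not pass (0.01, edgeR BH-adjusted p = 0.897).

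None of the 13 passed in HEK-293T with all libraries, where only 10.0% of all genes passed, while 1 had an unadjusted p under 0.05 in edgeR. SNRPA1, which binds U2 snRNA together with SNRPB2, measured 104, 109 and 109 CPM in the controls and 270.2, 157 and 160.0 CPM after siHNRNPH1. All 3 siHNRNPH1 libraries were above the controls, replicate 1 furthest. The log2 fold change was 0.85 ± 0.26 (SE, edgeR BH-adjusted p = 0.104), it was 0.50 without replicate 1 (edgeR BH-adjusted p = 4.74e-12), and DESeq2 called it with all libraries (0.86, DESeq2 BH-adjusted p = 0.019). SF3B1 measured 551, 559 and 547 CPM against 244, 532 and 550.4 CPM, low in replicate 1 alone (-0.36 ± 0.29, edgeR BH-adjusted p = 0.486). SF3B5, a small SF3B subunit, was at 123 CPM in replicate 1 and at 54.0 and 49.7 CPM in replicates 2 and 3, against 92.0, 85.8 and 94.1 CPM in the controls. Its log2 fold change was -0.27 with all libraries (edgeR BH-adjusted p = 0.704) and -0.86 without replicate 1.

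In the tri-snRNP, 7 of 11 genes were called lower and 1 higher in HT-1080, with a median of -0.23. After USP39, SNRNP40, a WD-repeat protein of U5, fell most, from 48.3, 55.1 and 47.1 CPM to 29.5, 32.8 and 29.3 CPM (log2 fold change -0.79 ± 0.08, edgeR BH-adjusted p = 1.31e-05). PRPF31, which bridges U4/U6 and U5, was called higher, from 62.7, 72.2 and 63.3 CPM to 79.7, 79.7 and 80.3 CPM (0.21 ± 0.06, edgeR BH-adjusted p = 0.0145). Its call was lost without siNegative replicate 1 or 3 or siHNRNPH1 replicate 3, with adjusted p-values from 0.0516 to 0.065. Of the large U5 proteins, PRPF8 was called lower by 0.24 (edgeR BH-adjusted p = 0.0157) with overlapping groups, and the helicase SNRNP200 had -0.04 and did not pass (edgeR BH-adjusted p = 0.646). Control replicate 2 was the lowest control for both. PRPF8 measured 547, 447 and 549 CPM in the controls, and SNRNP200 measured 246, 200 and 244 CPM. In HEK-293T, PRPF31 measured 78.5, 78.0 and 76.0 CPM against 190.0, 96.9 and 85.9 CPM, all above the controls (0.67 ± 0.34, edgeR BH-adjusted p = 0.277).

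Of the 12 activation, NTC, helicase and step factors, 5 were called lower and 2 higher in HT-1080, with a median of -0.13, where 65.3% of all genes were called and 32.6% were lower. DHX15, the helicase that takes apart spent spliceosomes, fell after SLU7 most, from 233, 223 and 236 CPM to 167, 169.6 and 165 CPM (log2 fold change -0.53 ± 0.04, edgeR BH-adjusted p = 2.28e-06). DHX38, the helicase of the second catalytic step, was higher beside CRNKL1, from 87.2, 80.0 and 85.5 CPM to 95.6, 98.0 and 96.3 CPM (0.13 ± 0.05, edgeR BH-adjusted p = 0.0277). That small change did not pass without siNegative replicate 3 or without any 1 siHNRNPH1 library (adjusted p-values from 0.0605 to 0.101). PRPF19, the ubiquitin ligase that names the NTC, did not pass although its groups were separate (0.04, edgeR BH-adjusted p = 0.491).

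**Figure D4:**
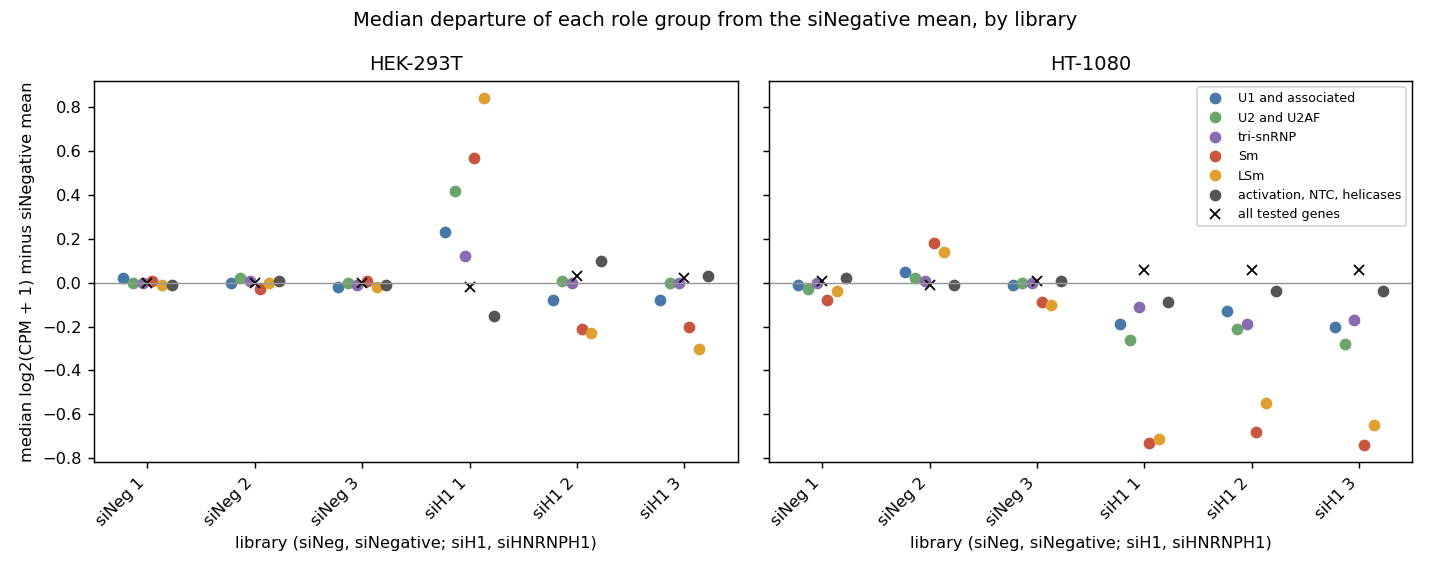
Median departure of each role from the mean of the siNegative libraries (vertical axis, log2(CPM + 1)) in each library (horizontal axis) of HEK-293T (left) and HT-1080 (right), with the same median over all tested genes as crosses. Sm and LSm points reach 0.57 and 0.84 in HEK-293T siHNRNPH1 replicate 1 and lie between -0.74 and -0.55 in HT-1080.

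The response differed between the lines in 14 of the 57 members by the interaction term, or 24.6%, beside 19.0% of all genes tested. It was more negative in HT-1080 in 13 of them (10.8% of all genes) and more positive in SLU7 alone (8.13% of all genes). The 6 with the smallest p were SLU7, SNRNP40, SNRPD1, SF3A2, PRPF4 and LSM8. For SNRNP40 the difference was -1.05 ± 0.22 (SE, edgeR BH-adjusted p = 0.00649), with HEK-293T at 77.8, 78.9 and 76.3 CPM against 108, 81.0 and 80.1 CPM. For the Sm protein SNRPD1 it was -1.18 ± 0.25 (edgeR BH-adjusted p = 0.00792), with 155 CPM in each HEK-293T control and 230.3, 151 and 156 CPM after siHNRNPH1, beside 91.4, 104 and 89.0 CPM against 53.3, 53.8 and 52.4 CPM in HT-1080.

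For SF3A2 the difference was -1.32 ± 0.30 (edgeR BH-adjusted p = 0.0103). It measured 54.3, 55.9 and 52.1 CPM in HEK-293T controls and 104, 69.0 and 56.1 CPM after siHNRNPH1, so the siHNRNPH1 libraries were all above the controls there and all below in HT-1080. PRPF4, a U4/U6 protein, showed the same opposition at a smaller size, with 106, 108 and 106 CPM against 116, 139 and 139 CPM in HEK-293T and 105, 100 and 103 CPM against 98.3, 99.0 and 99.9 CPM in HT-1080. The HT-1080 change, -0.12 (edgeR BH-adjusted p = 0.0266), passed on leaving out siNegative replicate 2 but not on leaving out any other HT-1080 library (adjusted p-values from 0.0588 to 0.0928). The interaction for PRPF4 was -0.46 ± 0.10 and that of LSM8 was -0.46 ± 0.11 (edgeR BH-adjusted p = 0.0104 and 0.0111). These 6 differences stayed past the threshold without any 1 of the 12 libraries. Those of PRPF4 and LSM8 did not pass when libraries were scaled by their size alone (adjusted p-values of 0.0746 and 0.0634) or with no low-count filter (0.24 and 0.224). Both also did not pass with the replicate number as a block. Without HEK-293T siHNRNPH1 replicate 1 the interaction count was 39 of 57 (49.0% of all genes), 32 more negative (26.4% of all genes) and 7 more positive (22.7%) in HT-1080. It was 19 and 22 without HEK-293T siHNRNPH1 replicate 2 and 3, and 6 to 9 without any 1 of the other 9 libraries. The shares of all genes in those fits are not given here.

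The groups were apart in both lines on opposite sides in 7 of the 57 members, beside 11.5% of all genes tested in both. They were apart on the same side in 21.6% of all genes, and members of that kind were not counted. In 6 members, SNRPA1, SNRPB2, SF3A2, SF3B4, SNRNP40 and PRPF4, every siHNRNPH1 library was above every control in HEK-293T and below every control in HT-1080, a pattern held by 5.36% of all genes tested in both lines. LUC7L2 alone had the reverse pattern, held by 6.13% of all genes. Of the 6, SNRPA1, SNRPB2, SF3A2 and SF3B4 belong to U2 and the others to the tri-snRNP, and the interaction passed in each. For SNRPB2 it was -0.62 ± 0.18 (edgeR BH-adjusted p = 0.0326). In LUC7L2 it was 0.27 ± 0.14 and did not pass (edgeR BH-adjusted p = 0.208). The LUC7L2 transcripts overlap a read-through gene, FMC1-LUC7L2, listed at 39.4 CPM in HEK-293T controls and 25.9 CPM after siHNRNPH1 and at 7.74 and 18.5 CPM in HT-1080 (means), so the division of reads between them is uncertain.

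Leaving out replicate 1, 35 members were called in both lines (46.9% of all genes tested in both). Of these, 27 were lower in both lines (16.7% of all genes), 2 were higher in both, PRPF31 and CRNKL1 (15.0% of all genes), and 6 went in opposite directions. Over all genes, opposite directions make up the rest of the 46.9%, so opposition was not particular to these members. Sm and LSm genes made up 12 of the 27. The 6 with opposite directions were SNRPA1, SNRPB2, SF3B4, PRPF4, CDC5L and DHX15, each higher in HEK-293T.

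Splicing factors are themselves spliced in alternative ways, so the share of each gene's expected counts held by each of its transcripts was also compared. Usage could be tested in 53 members in HEK-293T and 52 in HT-1080. It changed in 17 of the 52 in HT-1080 (limma diffSplice, Simes p per gene, BH-adjusted), or 32.7% beside 21.2% of all genes tested. In HEK-293T it changed in 3 of 53, PRPF3, SNRPA1 and LUC7L, or 5.66% beside 9.59% of all genes. Those 3 passed in both lines, as did 5.01% of all genes tested in both. Without replicate 1, 32 members passed in HEK-293T (41.6% of all genes), 13 of them also in HT-1080 (14.6% of all genes). On simulated data most diffSplice calls at HEK-293T settings and many at HT-1080 settings fell on unchanged genes, so the usage counts are weak evidence. Simulated libraries were drawn independently with the spread of all 6, so a single library standing apart was not reproduced. The rate of such calls in the real HEK-293T libraries therefore cannot be read from them. edgeR's diffSpliceDGE called 6 members in HT-1080 and 2 in HEK-293T, with its share of all genes not given here. Of the HT-1080 calls described here it kept LUC7L, LUC7L3, SF3B1 and PRPF8 and did not make those of PRPF3, LUC7L2, SNRPA1 and U2AF2 (adjusted p = 1.0, 0.535, 1.0 and 1.0), nor those of LUC7L and SNRPA1 in HEK-293T (0.901 and 0.92). Shares rest on RSEM's division of reads among overlapping transcripts, and the exact permutation p of a single share, 3 libraries against 3, cannot go below 0.1.

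PRPF3, a protein of the U4/U6 particle, showed the same shift in both lines at a gene level that did not pass in either. Its main transcript, ENST00000324862.7, held 85.1, 85.8 and 85.9% of the gene in HEK-293T controls and 93.9, 94.0 and 94.0% after siHNRNPH1. In HT-1080 it held 85.3, 84.7 and 86.6% against 94.0, 92.8 and 91.8%. The shares were apart in both lines and replicate 1 of HEK-293T lay with its fellows. The gene-level adjusted p of diffSplice was 0.00012 in HEK-293T and 1.88e-05 in HT-1080. Conversely, ENST00000476970.1 had a lower share after siHNRNPH1, with a mean of 5.64% against 1.496% in HEK-293T and of 3.84% against 1.87% in HT-1080. The PRPF3 calls were kept without any 1 library, but edgeR's diffSpliceDGE did not make them (adjusted p = 0.059 in HEK-293T and 1.0 in HT-1080).

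LUC7L lost the share of ENST00000293872.13. It held 18.3, 20.7 and 14.8% of the gene in HT-1080 controls and 3.76, 3.07 and 4.87% after siHNRNPH1 (diffSplice gene-level BH-adjusted p = 8.73e-09), with no overlap. In HEK-293T it held 24.7, 28.5 and 25.4% against 24.4, 9.04 and 5.73%, so replicate 1 lay just below the controls and replicates 2 and 3 far below them (diffSplice gene-level BH-adjusted p = 0.0404). That HEK-293T call was lost without any 1 library other than replicate 1 of siHNRNPH1, with adjusted p-values from 0.141 to 0.286. ENST00000490762.5 rose from 18.3, 23.8 and 22.5% to 34.6, 31.4 and 31.0% in HT-1080 (diffSplice BH-adjusted p = 0.0146).

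The other LUC7 relatives also changed usage in HT-1080. LUC7L3's ENST00000240304.5 went from 33.9, 39.1 and 37.0% to 24.4, 22.1 and 22.0% (diffSplice gene-level BH-adjusted p = 1.77e-06), while ENST00000393227.6 went from a mean of 14.9 ± 2.2% to 22.6 ± 0.8% (SD, n = 3 libraries). LUC7L2's ENST00000354926.9 went from 83.9, 87.8 and 88.3% to 70.9, 75.1 and 73.8% (diffSplice gene-level BH-adjusted p = 2.17e-05), while ENST00000463912.5 went from a mean of 5.15% to 11.2% and ENST00000498518.1 from 3.31% to 8.92%. None of these shares overlapped between the HT-1080 groups. The lines used LUC7L2 differently at the outset: ENST00000263545.7 averaged 64.0 ± 3.2% of the gene in HEK-293T controls and 0.53 ± 0.92% in those of HT-1080 (SD, n = 3 libraries), with no test of that difference. In HEK-293T neither gene passed with all libraries and both did without replicate 1 (diffSplice gene-level BH-adjusted p = 1.46e-14 for LUC7L3 and 1.96e-07 for LUC7L2).

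SNRPA1 passed in both lines through different transcripts. In HEK-293T its main transcript ENST00000254193.11 rose from 82.6, 83.5 and 83.7% to 95.1, 90.1 and 89.8% (diffSplice gene-level BH-adjusted p = 0.0202), while in HT-1080 its mean was 79.3% before and 79.2% after. ENST00000559309.5 was the leading transcript in HT-1080, at 7.95, 7.02 and 5.80% against 2.56, 3.90 and 4.52% (diffSplice gene-level BH-adjusted p = 0.00237). The same minor transcript held 3.17, 2.39 and 2.82% against 0.719, 0.932 and 1.13% in HEK-293T, so its shares were separate and lower in both lines. The HT-1080 call was lost without siHNRNPH1 replicate 1 (adjusted p = 0.074), and the HEK-293T call without any 1 siNegative library (adjusted p-values from 0.148 to 0.261).

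SF3B1 stood next to LUC7L among the HT-1080 usage changes. Its main transcript ENST00000335508.11 fell from 88.6, 85.7 and 89.3% to 76.7, 74.2 and 75.7%, and ENST00000470268.2 rose from 4.98, 4.77 and 5.202% to 11.5, 13.9 and 14.8% (diffSplice gene-level BH-adjusted p = 8.10e-07). The groups were far apart. In HEK-293T ENST00000470268.2 held 4.24, 3.70 and 4.35% against 0.805, 3.37 and 3.76%, with no gain. PRPF8's ENST00000572621.5 rose in HT-1080 from 2.69, 2.91 and 4.81% to 7.03, 6.504 and 9.02% (diffSplice gene-level BH-adjusted p = 2.95e-05). In HEK-293T it held 3.13, 2.45 and 2.57% against 1.36, 7.44 and 7.27%, low in replicate 1 and high in the others. U2AF2, the large U2AF subunit, had ENST00000308924.9 at 52.1, 51.4 and 52.5% against 43.3, 44.8 and 45.9% and ENST00000450554.6 at 44.7, 45.5 and 43.9% against 50.9, 51.1 and 49.6% in HT-1080 (diffSplice gene-level BH-adjusted p = 8.94e-05).

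U2AF2, LSM8 and SNRNP70 had the next smallest usage p-values in HEK-293T and did not pass (diffSplice gene-level BH-adjusted p = 0.0998, 0.121 and 0.136). The leading transcript of U2AF2 there, ENST00000587275.1, held under 0.3% of the gene in every library. LSM8's ENST00000249299.7 held 53.5, 53.9 and 53.9% against 59.3, 63.9 and 65.2%. For SNRNP70, the U1 protein that binds its stem loop, ENST00000598441.6 held 40.7, 41.6 and 41.2% against 58.6, 50.6 and 47.0%. In LSM8 and SNRNP70 the shares were higher in all 3 siHNRNPH1 libraries.

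**Figure D5:**
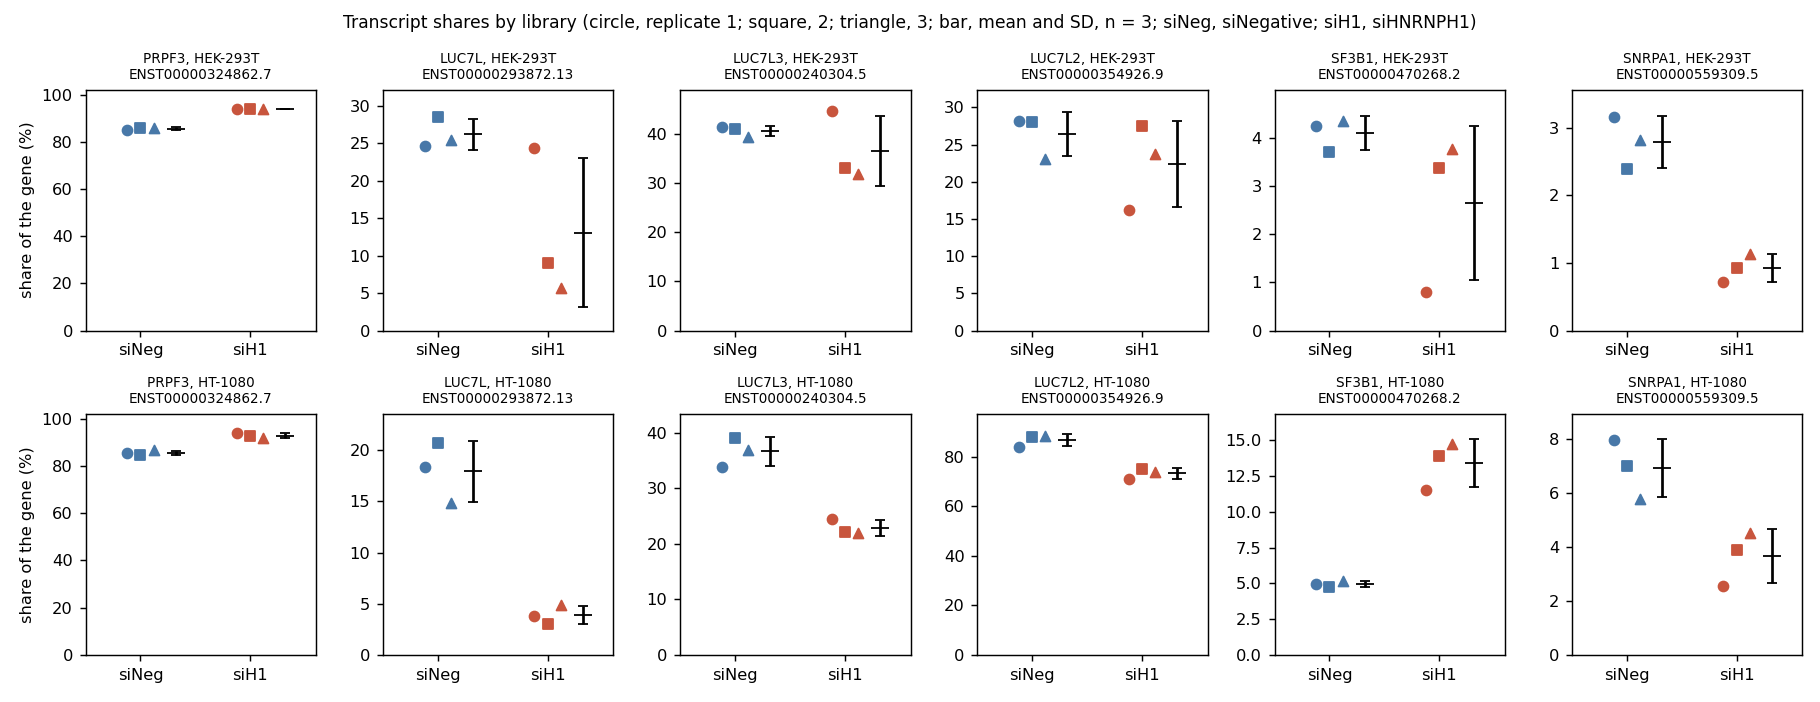
Share of the gene's expected counts in percent (vertical axis) held by 1 transcript of PRPF3, LUC7L, LUC7L3, LUC7L2, SF3B1 and SNRPA1 in each library of HEK-293T (top) and HT-1080 (bottom), with the mean and SD of 3 libraries. The PRPF3 transcript is near 94% in all siHNRNPH1 libraries of HEK-293T, while the LUC7L transcript is at 24.4% in replicate 1 and at 9.04 and 5.73% in replicates 2 and 3.

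At the level of single transcripts, 68 of 312 member transcripts passed edgeR's test in HT-1080, or 21.8% beside 16.1% of all transcripts tested, with 55 lower (8.18% of all) and 13 higher (7.91% of all). In HEK-293T 1 of 371 passed, or 0.27% beside 0.248% of all, the SLU7 transcript ENST00000297151.9. Its log2 fold change was -2.00 ± 0.15 (SE, edgeR BH-adjusted p = 0.0314) in HEK-293T and -1.04 ± 0.06 (edgeR BH-adjusted p = 0.000406) in HT-1080. This transcript held 96.6% of SLU7 in HEK-293T controls and 93.1% after siHNRNPH1 (means), so the gene and its main transcript went down together. Without replicate 1, 92 of 381 member transcripts passed in HEK-293T (16.0% of all), 64 lower (8.71%) and 28 higher (7.29%). Without any 1 other HEK-293T library edgeR called 0, with 17 to 49 at an unadjusted p under 0.05. The HT-1080 count was 35 to 46 without any 1 library other than siNegative replicate 2. The shares of all transcripts in these fits are not given here.

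Other genes of the splicing machinery, from lists kept apart from the 57, were compared with the same test, by which 65.3% of all genes were called in HT-1080, 32.6% lower and 32.7% higher. Of 42 other spliceosome proteins, 24 were called lower and 4 higher in HT-1080, with a median of -0.21. Of 18 factors that assemble snRNPs, 15 were lower and 1 higher, with a median of -0.43. Of 12 proteins of the minor spliceosome, which removes a rare class of introns, 3 were lower and 1 higher, with a median of -0.06, so the count called was below the share of all genes. In HEK-293T with all libraries the counts called were 0, 1 and 0, where 10.0% of all genes were called, with 7, 3 and 1 at an unadjusted p under 0.05 in edgeR.

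CLNS1A, the chaperone pICln that holds Sm proteins before ring assembly, was the assembly factor called in HEK-293T, and it was lower in both lines. It measured 157, 159 and 157 CPM against 89.4, 72.2 and 74.0 CPM in HEK-293T and 134, 154 and 139 CPM against 69.7, 68.2 and 69.0 CPM in HT-1080. The log2 fold changes were -1.03 ± 0.15 (SE, edgeR BH-adjusted p = 0.016) and -1.11 ± 0.06 (edgeR BH-adjusted p = 2.29e-07), and the HEK-293T call was lost without any 1 library other than siHNRNPH1 replicate 1 (adjusted p-values from 0.0563 to 0.104). GEMIN2, which holds the Sm proteins within the SMN complex, fell in HT-1080 from 12.4, 15.2 and 11.99 CPM to 7.30, 6.77 and 6.88 CPM (-0.99 ± 0.11, edgeR BH-adjusted p = 2.70e-05). STRAP, a WD-repeat protein of that complex, rose there by 0.37 (edgeR BH-adjusted p = 0.000136).

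Of the other spliceosome proteins, WBP4, which carries WW domains, rose in HT-1080 from 9.08, 9.80 and 9.48 CPM to 22.8, 22.5 and 23.5 CPM (log2 fold change 1.21 ± 0.06, edgeR BH-adjusted p = 2.16e-07). In HEK-293T it measured 16.4, 16.0 and 16.1 CPM against 11.3, 13.7 and 14.03 CPM (-0.34 ± 0.11, edgeR BH-adjusted p = 0.119), so the groups were separate in opposite directions. The interaction was 1.48 (edgeR BH-adjusted p = 1.87e-05). PLRG1, an NTC protein like CRNKL1, rose in HT-1080 by 0.54 (edgeR BH-adjusted p = 1.20e-05). PPIH, a peptidyl-prolyl isomerase of U4/U6, and RBM17 fell there, with log2 fold changes of -1.01 and -0.78 (edgeR BH-adjusted p = 1.82e-06 and 4.38e-07). In the minor spliceosome, PDCD7 rose with 0.36, while CENATAC and SNRNP48 fell with -0.40 and -0.39 (edgeR BH-adjusted p = 0.000363, 0.00204 and 0.000253).

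Near copies limit some of these values. SNRPN, a near copy of SNRPB, was listed at 0 in every HEK-293T group mean and at 63.5 CPM in HT-1080 controls against 82.6 CPM after siHNRNPH1, so reads of the pair could be divided differently in the lines. SMN1 and SMN2 in the assembly list are near-identical, and several Sm genes have processed pseudogenes, of which SNRPEP4 stayed near 1 CPM or below. Long-read pools held 505 and 735 transcript models at the 57 loci in HEK-293T (siNegative and siHNRNPH1) and 485 and 432 in HT-1080. A model is not a read and 33 to 43 of the members had under 10 models in a pool, so shares were not computed from them.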

How the data were processed

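RNA-seq was measured in 12 short-read libraries, 3 per group in 2 cell lines, with 1 IsoSeq pool per group. The deposited values are expected counts per transcript, which the authors estimated with RSEM on GRCh38.p13, per the submitters' processing notes. The RSEM version, aligner, annotation release, strandedness and trimming are not given in the sources used here, so reads of overlapping antisense genes may be shared. The IsoSeq files list transcript models with no depth.

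Transcripts of a gene were added up, and the sums rounded to whole counts. The filter was filterByExpr of edgeR 4.0.16 (R 4.3.3), and genes left were TMM-scaled and tested by robust quasi-likelihood, two-sided, on the 6 libraries of a line, and in a cell line by siRNA interaction over 12. All 57 members passed the filter in both lines. Usage was tested with limma 3.58.1 diffSplice on voom weights. Adjusted p-values are Benjamini-Hochberg (BH) over all features, with a threshold of 0.05. On simulated data the usage test missed most genes given a 3-fold change. Most of its calls in HEK-293T and many in HT-1080 were on unchanged genes. The gene-level test recovered most genes given a 3-fold change. Its share of calls on unchanged genes was smaller, and was above the threshold in HT-1080. Recovery of changes smaller than 3-fold was not tested. Each simulated library was drawn independently, so a library standing apart, like HEK-293T siHNRNPH1 replicate 1, was not reproduced. DESeq2 1.42.0, other scalings, filters, fits and leave-one-out were alternatives. Standard errors came from the F statistic.

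Most named genes are those called in both lines, the 2 most changed per role and direction, the 6 smallest interaction p-values, the usage leaders, and the leaders of the other lists. Others, among them SNRNP200, PRPF19, SF3B5, SF3B6 and SNRPB2, were described outside these criteria. Members and lists were chosen with earlier results of these data known. No gene sequences are shown, and 1 cell line marker is not reported here.

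Replicate numbers were shared between groups. Deviations of same-numbered libraries correlated at 0.017 to 0.053 in HEK-293T and -0.061 to 0.028 in HT-1080, so the numbers were not taken to pair samples. No libraries were duplicates: chi-square per degree of freedom between replicates ran from 1.74 to 773. Among the HT-1080 controls it was 16.2 and 15.8 for replicate 2 with replicates 1 and 3, and 1.74 between those. Values rest on 27.3 M to 121.0 M (mega) counts per library, and all comparisons are between libraries of these cultures.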

Additional observations from a re-analysis of the deposited data

Results flagged for a closer look

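These results were set aside because the response to siHNRNPH1 differed between the lines by the interaction term (edgeR, BH-adjusted over all genes, 3 libraries per group), each given as the log2 fold change in HT-1080 minus that in HEK-293T. Of the U2 proteins, SNRPA1 differed by -1.15, SNRPB2 by -0.62, SF3A2 by -1.32, SF3A3 by -0.49 and SF3B4 by -0.99. Of the tri-snRNP proteins, SNRNP40 differed by -1.05, PRPF4 by -0.46 and USP39 by -0.45. The Sm proteins SNRPB, SNRPD1 and SNRPF differed by -1.18 each, and the LSm proteins LSM5 and LSM8 by -0.82 and -0.46. SLU7 differed by 0.87, since its fall was larger in HEK-293T. Outside the 57, only the named leaders of the other lists were looked at here. Among them, RBM17 differed by -0.79, PPIH by -0.77, WBP4 by 1.48, CENATAC by -1.12 and GEMIN2 by -1.14. In the full lists, 7 of 42 other spliceosome proteins, 1 of 12 minor spliceosome proteins and 5 of 18 assembly factors passed, beside 19.0% of all genes. HEK-293T siHNRNPH1 replicate 1 lies apart from its fellows in many of these genes. Without that library the differences of SNRPA1, SF3A2, SNRPB and SNRPF were -0.77, -0.96, -0.72 and -0.76, and each still passed. No tested group had more than 3 libraries, so no library was tested as an outlier.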

How the results depend on the processing

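The HEK-293T counts depended most on the processing. With all libraries 3 members were called at gene level, and the count was 1 with no low-count filter, 5 with DESeq2, 6 with all 12 libraries in 1 fit, and 0 to 45 on leaving out 1 library. Its usage count of 3 became 0 with transcripts of at least 5% of the gene (4 at an unadjusted p under 0.05) and 1 to 32 on leaving out 1 library, and its transcript count of 1 became 0 to 92. Members called the same way in both lines, a count added after seeing the data, numbered 3, and 1 with no filter and 0 to 29 on leaving out 1 library. In HT-1080 the gene count of 45 was 23 with all 12 libraries in 1 fit and 40 to 51 on leaving out 1 library. Its usage count of 17 was 6 with edgeR diffSpliceDGE and 12 to 18, and its transcript count of 68 was 35 to 61. The interaction count of 14 was 8 with no filter, 22 with DESeq2 and 6 to 39. With the replicate number as a block, the edgeR counts were 0 in HEK-293T at gene level and 0 for its transcripts (4 and 21 at an unadjusted p under 0.05), 0 in both lines, 45 in HT-1080 genes, 33 for HT-1080 transcripts and 5 for the interaction, without PRPF4 and LSM8. In HEK-293T 6 of 6 libraries correlated best with their own number and in HT-1080 2 of 6, a hint from the data and not the design. Some HEK-293T estimates changed sign: leaving out 1 library in turn gave -0.21 to 0.11 for DHX15, -0.10 to 0.60 for LSM3, -0.04 to 0.12 for LUC7L, -0.03 to 0.30 for SF3B2, -0.01 to 0.27 for SNRNP40, -0.23 to 0.42 for SNRPA, -0.14 to 0.44 for SNRPC, -0.07 to 0.32 for SNRPD1, -0.22 to 0.58 for SNRPD2, -0.23 to 0.33 for SNRPF and -0.09 to 0.17 for GEMIN2. In each, the sign changed without siHNRNPH1 replicate 1. The list covers only genes followed through the alternatives for their level, and other members changed sign too. With all libraries SNRNP70, SNRPB, LSM2, LSM4 and LSM7 had 0.10, 0.30, 0.28, 0.19 and 0.33. Without that replicate they had -0.22, -0.13, -0.29, -0.35 and -0.26. LSM8 had -0.03 without replicate 3 and 0.06 without replicate 1, and PDCD7 0.00 in the joint fit. The cause of these shifts was not tested. The lower depth of HT-1080 limits what its rarer transcripts can show. Without HEK-293T siHNRNPH1 replicate 1 the shares of all features called were 61.8% for genes, 41.6% for usage, 16.0% for transcripts and 49.0% for the interaction. For the other alternatives such shares are not given here. Their counts show how far the calls moved and do not compare the members with all genes.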

Other observations

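The shares of a few more transcripts were separate in both lines in the same direction, HEK-293T replicate 1 included. They were chosen after their values were seen and are given as a description. The share of all transcripts with such separation was not computed. BUD31, a protein of the activated spliceosome, had ENST00000222969.10 at 35.02, 38.7 and 35.6% of the gene in HEK-293T controls and 49.5, 49.0 and 49.3% after siHNRNPH1. In HT-1080 it held 41.6, 45.8 and 44.1% against 56.9, 59.8 and 57.6%. BUD31 usage passed in HT-1080 and did not pass in HEK-293T with all libraries (limma diffSplice gene-level BH-adjusted p = 0.000279 and 0.306). The BUD31 gene level did not pass in either line. USP39, lower in level in both lines, also had a lower share of ENST00000323701.11, at 61.7, 63.0 and 65.4% against 55.5, 54.1 and 54.5% in HEK-293T and 73.7, 72.6 and 66.7% against 56.9, 61.6 and 64.0% in HT-1080. USP39 usage passed in HT-1080 and did not pass in HEK-293T with all libraries (limma diffSplice gene-level BH-adjusted p = 0.0338 and 0.199). The minor LUC7L transcript ENST00000443357.5 averaged 0.729% and 3.17% in the HEK-293T groups and 1.71% and 5.87% in those of HT-1080.

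Of the 18 snRNP assembly factors, 5 passed the interaction test, where 19.0% of all genes did. GEMIN4, of the SMN complex, measured 134, 135 and 134 CPM against 202, 170.4 and 160.5 CPM in HEK-293T and 69.4, 65.6 and 67.4 CPM against 47.9, 46.0 and 44.5 CPM in HT-1080, above the controls in every library of one line and below in the other. Its interaction was -1.08 (edgeR BH-adjusted p = 0.00137). PHAX, the adaptor that exports snRNAs from the nucleus, had an interaction of -0.65 (edgeR BH-adjusted p = 0.0027). These genes, too, were named after their values were seen.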
